A study of Mus musculus with 16 samples.

Results

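The genes described here encode the contractile apparatus of striated muscle and its close partners, 43 of the 56748 genes with a value in the study. They were taken by name: myosin heavy and light chains, sarcomeric actins, troponins, Z-disc, M-band and scaffold proteins, calcium release proteins, acetylcholine receptor subunits, muscle enzymes and proteins that assemble sarcomeres. All 43 were found, and 39 passed the filter of at least 0.5 FPKM in at least 4 libraries. FPKM are fragment numbers divided by gene length and by a total for the library, so levels can be set side by side between genes. By where each is best known, 21 members were classed as skeletal, 3 as cardiac (Myh6, Myl7, Tnni3) and 19 as shared by both kinds of striated muscle or by heart and embryonic skeletal muscle.

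The study asked whether the local tissue environment differs between body regions of mouse embryos that lack the endothelin B receptor, Ednrb, whose loss leaves uneven pigmented spots. RNA was sequenced from the trunk and from the caudal region of E11.5 embryos, either WT (Ednrb+/+) or Ednrb-/-, with 4 biological replicate libraries in each of the 4 groups and no treatment. Each library is bulk RNA of a whole region, so fewer muscle cells and less muscle RNA per cell cannot be told apart. The Ednrb-/- allele is a targeted mutation of the whole animal. The sources used here do not name the strain, the targeted part of the gene, the number of embryos per library or which regions came from the same embryo.

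A sarcomere is the repeating unit of striated muscle, in which myosin thick filaments pull on actin thin filaments anchored at Z-discs. Calcium released from the sarcoplasmic reticulum binds troponin on the thin filament and lets the motors engage, and titin and nebulin act as molecular rulers of the assembly. At this stage the first skeletal muscle fibres form in the myotome of the somites, development runs from head to tail, and early fibres co-express embryonic, slow and cardiac-type isoforms. The heart expresses many of the same genes, so isoforms restricted to the heart are the ones that would mark its tissue.

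Libraries held between 34883821 and 43444905 reads in listed genes. The total that divides the FPKM was 1.013 to 1.035 times these reads in WT libraries and 0.949 to 1.006 times in Ednrb-/- ones, without overlap. The shares of all genes called higher and lower depend on this scaling, as given with the alternatives below. Ednrb itself had 26.2 to 33.5 FPKM in WT caudal and 35.8 to 41.8 in WT trunk libraries, against 1.59 to 3.44 and 3.37 to 4.8 in the Ednrb-/- libraries of the same regions, so all 16 libraries matched their labelled genotype. In 3 libraries Xist and the Y-linked Ddx3y both reached 5 FPKM: WT caudal replicate 2, Ednrb-/- caudal replicate 3 and Ednrb-/- trunk replicate 3. Xist alone reached it in 1 WT caudal, 0 Ednrb-/- caudal, 2 WT trunk and 1 Ednrb-/- trunk libraries. The part of this imbalance, and of the 3 mixed libraries, in what follows was not tested beyond leaving the 3 libraries out, and the counts without them are given beside the full ones.

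Most of the contractile genes were lowest in the Ednrb-/- caudal region and highest in the WT trunk. The summed level of the 43 members was 369 to 400 FPKM in WT caudal, 146 to 212 in Ednrb-/- caudal, 602 to 731 in WT trunk and 463 to 490 in Ednrb-/- trunk libraries, with no overlap between any of the 4 groups. As a mean share of reads these genes took 0.122%, 0.0514%, 0.207% and 0.148%. The means ran in the order Ednrb-/- caudal, WT caudal, Ednrb-/- trunk, WT trunk for 28 of 39 members, against 9.38% of all genes tested, and for 14 of them neighbouring groups did not overlap, against 0.325%. Those 14 were Actc1, Mylpf, Acta1, Myh3, Tnnc1, Tnnt1, Myl1, Casq2, Mybph, Smyd1, Myom1, Neb, Myh8 and Cacna1s. The order counted is that of the members' own summed levels. That choice favours the members, so the shares of all genes beside it are no test. Every WT caudal library lay below every Ednrb-/- trunk library for 23 members (8.71% of all genes) and above it for 3, Mybpc1, Car3 and Myom2 (7.7%).

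In the caudal region 32 of the 39 members tested fell in Ednrb-/- embryos and 1 rose, where 41.6% of all genes were called, 19.9% lower and 21.7% higher. The same 32 had every Ednrb-/- caudal library below every WT caudal one (18.2% of all genes), and 1 had it above (19.1%). The median log2 change of the members was -0.83, against 0.01 over all genes. In the trunk 19 fell and 2 rose, where 25.1% of all genes were called, 13% lower and 12.2% higher, and the members' median was -0.34. The trunk groups did not overlap for 24 members lower in Ednrb-/- (14.2% of all genes) and 1 higher (13.9%). The difference between these 2 genotype effects was itself tested as an interaction: it was called for 23 members, all 23 with the more negative effect in the caudal region, where 6.76% of all genes were called and 3.78% in that direction. Without the 3 mixed libraries the counts were 32 lower and 1 higher, 16 lower and 1 higher, and 23. Changes are limma estimates on log2(FPKM + 0.5) with their standard error (SE), each p is adjusted by Benjamini-Hochberg over all 17205 genes tested, and a negative genotype change means lower in Ednrb-/-. These p-values measure the spread between the sampled libraries, and a change on this scale understates that of a low gene.

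**Figure D1:**
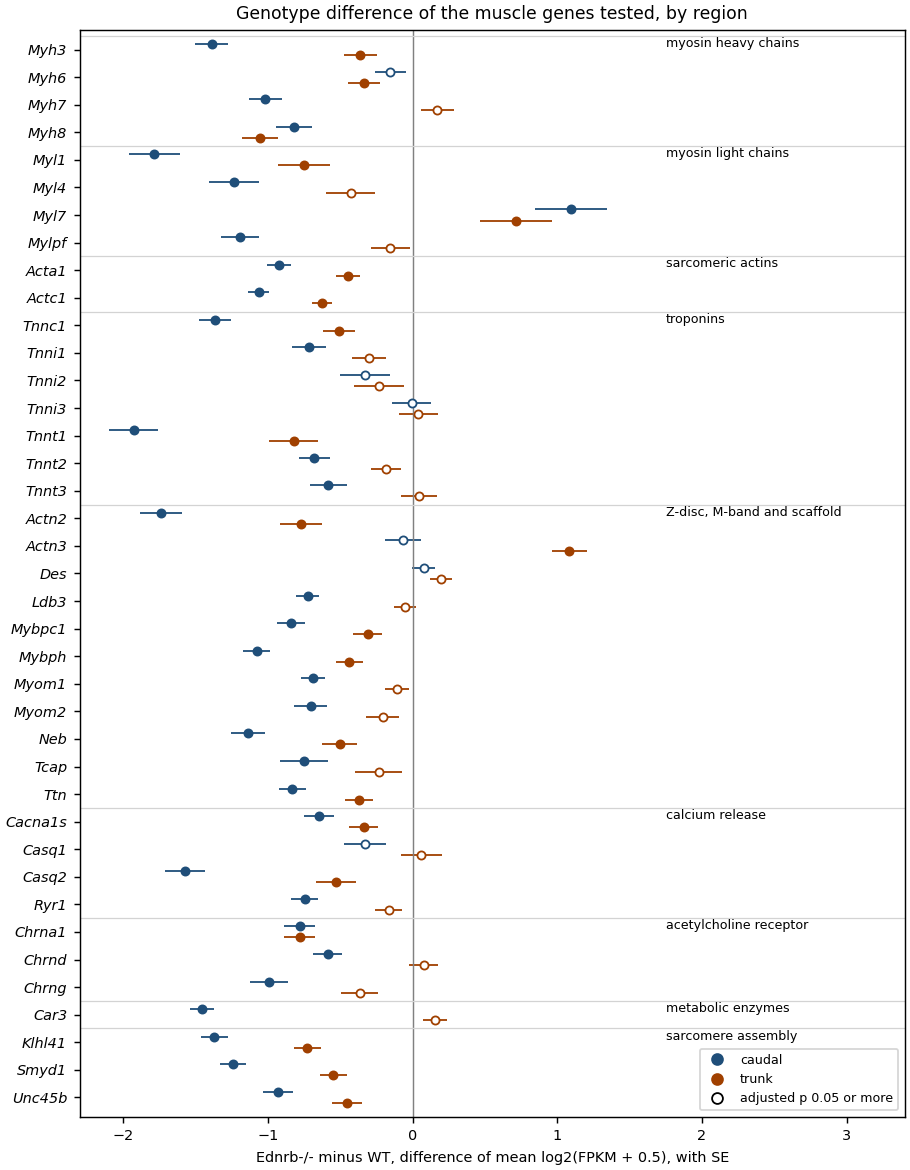
Log2 change (Ednrb-/- minus WT, on log2(FPKM + 0.5)) of the 39 members tested in the caudal region and in the trunk, with the standard error, grouped by role; open points had an adjusted p of 0.05 or more. In the caudal region 32 members were called lower and Myl7 alone higher; in the trunk 19 were called lower, and Actn3 and Myl7 higher.

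Promoter sequence is shown for members that stand for the main patterns: Actc1, the most abundant member, and Acta1, the other sarcomeric actin; Klhl41 and Tnnt1, which fell in both regions, Tnnt1 with the most negative caudal change among the members; Des, which was not called in either region; and Myl7, which rose. Each is the 250 bases before the RefSeq start, on GRCm38.p6, written 5′ to 3′ on the gene's strand. These coordinates belong to another build than the study's mm39 and are given only to locate the sequence. Capitals mark a CArG box (the site of serum response factor), a MEF2 site, the E-box CAGCTG and the M-CAT motif CATTCC, searched on both strands.
Actc1, chr2:114052876-114053125, minus strand: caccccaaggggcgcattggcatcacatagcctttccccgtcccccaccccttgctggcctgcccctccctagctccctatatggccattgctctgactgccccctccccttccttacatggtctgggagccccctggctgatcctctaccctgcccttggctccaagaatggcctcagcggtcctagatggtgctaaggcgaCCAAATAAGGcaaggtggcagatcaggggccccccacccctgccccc
Acta1, chr8:123894776-123895025, minus strand: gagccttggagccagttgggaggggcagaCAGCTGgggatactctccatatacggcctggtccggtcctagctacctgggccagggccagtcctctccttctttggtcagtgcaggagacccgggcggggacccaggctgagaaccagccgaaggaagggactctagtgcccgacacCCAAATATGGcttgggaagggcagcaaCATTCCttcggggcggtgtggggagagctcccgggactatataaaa
Klhl41, chr2:69669870-69670119, plus strand: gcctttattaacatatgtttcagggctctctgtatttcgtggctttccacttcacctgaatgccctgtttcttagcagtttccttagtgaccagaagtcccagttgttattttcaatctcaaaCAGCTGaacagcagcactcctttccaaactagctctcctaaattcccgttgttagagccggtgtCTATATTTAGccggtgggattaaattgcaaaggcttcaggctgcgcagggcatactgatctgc
Tnnt1, chr7:4515976-4516225, minus strand: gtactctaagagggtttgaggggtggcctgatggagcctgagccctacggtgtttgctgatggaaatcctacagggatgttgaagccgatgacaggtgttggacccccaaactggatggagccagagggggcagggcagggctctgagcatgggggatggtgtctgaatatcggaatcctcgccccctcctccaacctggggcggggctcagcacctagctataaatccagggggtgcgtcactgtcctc
Des, chr1:75360042-75360291, plus strand: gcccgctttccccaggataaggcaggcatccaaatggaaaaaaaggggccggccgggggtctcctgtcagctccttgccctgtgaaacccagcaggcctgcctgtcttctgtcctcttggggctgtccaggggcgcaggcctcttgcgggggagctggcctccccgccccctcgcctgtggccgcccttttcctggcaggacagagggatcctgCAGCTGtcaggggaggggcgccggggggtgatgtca
Myl7, chr11:5898783-5899032, minus strand: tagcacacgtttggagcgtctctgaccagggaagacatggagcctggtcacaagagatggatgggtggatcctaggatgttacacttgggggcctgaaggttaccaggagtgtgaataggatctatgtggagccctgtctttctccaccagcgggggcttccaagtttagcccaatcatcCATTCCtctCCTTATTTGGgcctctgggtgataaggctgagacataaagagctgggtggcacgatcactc

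Both actin promoters and that of Myl7 held a CArG box within 73 bases of the start. In Klhl41 a MEF2 site and a CAGCTG E-box lay 63 and 127 bases before the start, counted to their first base. The window of Tnnt1 held none of the capitalised motifs, and that of Des held CAGCTG 36 bases before the start. Of the members, 35 had 1 or more RefSeq promoters, 40 in all. A CArG box was in 17.5% of the 40 against 1.47% of all 32851 promoters, a MEF2 site in 10% against 2.92%, CAGCTG in 40% against 13% and CATTCC in 25% against 12.6%. The general E-box CANNTG, which includes CAGCTG, was in 85% against 66.2%. Overlapping promoters of Ldb3 hold the same CArG box, and those of Tnni1 the same CAGCTG, so these sites count more than once. By gene, a CArG box was in 6 of the 35 members, a MEF2 site in 4, CAGCTG in 15 and CATTCC in 10. A match is a string in the sequence and not a measured binding site.

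Myosin heavy chains are the motors of the thick filament. Myh3, on chromosome 11 from 66969126 to 66993117, encodes the embryonic skeletal form and was the most abundant of the 4 heavy chains. It had 30.1, 30.8, 31.0 and 34.0 FPKM in the WT caudal libraries and 12.0, 8.61, 15.6 and 11.6 in the Ednrb-/- caudal ones. The trunk levels were 53.8, 60.2, 53.9 and 58.2 in WT and 42.6, 42.4, 45.6 and 44.8 in Ednrb-/-. No group overlapped another, and the change in the Ednrb-/- embryos was -1.39 ± 0.11 (adjusted p = 1.9e-06) in the caudal region and -0.36 ± 0.11 (adjusted p = 0.03) in the trunk. The trunk call of Myh3 was lost in 6 of 28 alternatives, 5 of them with 1 trunk library left out (adjusted p up to 0.0797).

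Myh8, the perinatal skeletal heavy chain, from 67167950 to 67199460 on the same chromosome, was far lower and showed wide relative differences between the groups. Its levels were 0.532, 0.469, 0.225 and 0.584 FPKM in WT caudal and 0.0138, 0.0192, 0.0857 and 0.0146 in Ednrb-/- caudal libraries. The latter rest on 6, 8, 36 and 6 reads. In the trunk it had 3.47, 3.91, 3.28 and 3.95 in WT and 1.49, 1.48, 1.83 and 1.23 in Ednrb-/-, so the groups did not overlap in either region. The change was -0.82 ± 0.12 (adjusted p = 0.00011) in the caudal region and -1.05 ± 0.12 (adjusted p = 5.6e-05) in the trunk. With so few reads the added 0.5 FPKM holds the caudal estimate down: limma-voom on the whole reads gave -4.14 in the caudal region and -1.33 in the trunk, and it turned the sign of the interaction, from 0.23 (adjusted p = 0.47) to -2.81 (adjusted p = 0.011). The ratio of Myh8 to Myh3, per length, averaged 0.0143 in WT caudal, 0.00254 in Ednrb-/- caudal, 0.0645 in WT trunk and 0.0344 in Ednrb-/- trunk libraries. Without the mixed library, replicate 3, the Ednrb-/- caudal mean was 0.00155.

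Myh7, the slow skeletal and beta cardiac heavy chain on chromosome 14 from 55208141 to 55232083, followed another pattern. It had 2.38, 2.52, 2.45 and 2.31 FPKM in WT caudal against 0.964, 0.631, 1.37 and 0.883 in Ednrb-/- caudal libraries, a change of -1.02 ± 0.11 (adjusted p = 1.1e-05). In the trunk the Ednrb-/- libraries had 3.68, 3.84, 3.33 and 4.2 and overlapped the WT ones at 3.29, 3.35, 2.98 and 3.51 (0.17 ± 0.11, adjusted p = 0.3). The genotype effect differed between the regions by -1.19 ± 0.16 (adjusted p = 0.0017). Its neighbour Myh6, the alpha cardiac heavy chain, 3756 bases away on the same strand, stayed under 1 FPKM in all libraries. Myh6 had means of 0.215, 0.141, 0.764 and 0.499 FPKM in WT caudal, Ednrb-/- caudal, WT trunk and Ednrb-/- trunk, and its trunk change of -0.34 ± 0.11 (adjusted p = 0.033) was lost in 10 of 28 alternatives. The 2 genes have very similar coding sequences, as do the actins below, and the sources used here do not say how reads shared by such copies were counted.

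Myosin light chains bind the neck of the motor. Mylpf, the fast skeletal regulatory light chain, had 47.7, 47.0, 53.7 and 47.0 FPKM in WT caudal and 24.1, 15.6, 28.9 and 18.1 in Ednrb-/- caudal libraries, without overlap (-1.19 ± 0.13, adjusted p = 1.2e-05). In the trunk its WT levels of 70.5, 81.3, 70.9 and 75.7 lay above the Ednrb-/- levels of 69.2, 69.5, 66.7 and 62.6 in every library, yet the change of -0.15 ± 0.13 (adjusted p = 0.44) did not pass the test. Myl1, the fast skeletal essential light chain, moved in both regions. It had 12.4, 12.8, 12.0 and 12.7 in WT caudal against 2.84, 1.92, 5.34 and 3.72 in Ednrb-/- caudal (-1.79 ± 0.18, adjusted p = 5.3e-06), and 24.8, 29.7, 26.4 and 28.6 in WT trunk against 16.7, 17.0, 16.2 and 14.5 in Ednrb-/- trunk (-0.75 ± 0.18, adjusted p = 0.0064). Its ratio to Mylpf averaged 0.256 and 0.158 in the WT and Ednrb-/- caudal groups and 0.367 and 0.24 in the trunk groups.

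Myl4, the essential light chain of atrium and embryonic muscle, averaged 4.91 ± 0.507 (SD, n = 4) FPKM in WT caudal and 1.9 ± 0.782 in Ednrb-/- caudal libraries (-1.23 ± 0.17, adjusted p = 5.6e-05). Its trunk change was -0.43 ± 0.17 (adjusted p = 0.079), from 8.35 ± 0.394 to 6.08 ± 0.371, and the groups did not overlap. This change passed the test in 6 of 28 alternatives. Myl2 and Myl3, the ventricular and slow light chains, did not pass the filter. Myl3 had between 6 and 39 reads per library and Myl2 between 1 and 16. With Tnnc2 and Ckm, described with their groups, they were compared by a two-sided exact permutation test of mean FPKM in 4 contrasts each. The smallest p that 4 against 4 libraries allow, 0.0286, was reached by Myl3 and Ckm for trunk over caudal in Ednrb-/-, and no adjusted p over the 16 tests was under 0.229.

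Myl7, the atrial regulatory light chain, was the member that rose in the caudal region. It had 0.184, 0.278, 0.927 and 0.276 FPKM in WT caudal, where replicate 3 stood above the rest, and 1.33, 1.39, 0.95 and 1.95 in Ednrb-/- caudal libraries, a change of 1.10 ± 0.25 (adjusted p = 0.0025). Trunk levels overlapped, at 1.15, 1.26, 0.763 and 0.612 in WT and 1.08, 1.74, 2.16 and 2.6 in Ednrb-/- (0.71 ± 0.25, adjusted p = 0.048). These levels rest on 4 to 62 reads per library. The trunk call was lost in 17 of 28 alternatives, 10 of them with 1 library left out, and at adjusted p = 0.119 without the 3 mixed libraries.

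Thin filaments were represented by the sarcomeric actins Actc1 and Acta1, the cardiac and skeletal alpha actins. Both are made in embryonic skeletal muscle. Actc1, on chromosome 2 from 113877763 to 113884029, was the most abundant member, at 96.9, 101, 103 and 97.9 FPKM in WT caudal and 46.6, 43.8, 53.5 and 46.1 in Ednrb-/- caudal libraries. In the trunk it had 181, 207, 156 and 183 in WT and 117, 119.9, 118 and 113 in Ednrb-/-. The 4 groups did not overlap, and the changes were -1.07 ± 0.07 (adjusted p = 3.7e-07) and -0.63 ± 0.07 (adjusted p = 4.0e-05). Acta1, on chromosome 8 from 124618508 to 124621490, showed the same order of groups. Its levels were 34.1, 37.3, 39.1 and 35.7 in WT caudal, 18.9, 17.5, 21.5 and 18.4 in Ednrb-/- caudal, 55.4, 71.4, 57.2 and 63.9 in WT trunk and 49.7, 42.5, 47.9 and 41.3 in Ednrb-/- trunk libraries. Acta1 changed by -0.92 ± 0.08 (adjusted p = 3.1e-06) and -0.44 ± 0.08 (adjusted p = 0.0014). The ratio of Acta1 to Actc1 moved little beside these changes, with means of 0.366 and 0.402 in the WT and Ednrb-/- caudal groups and 0.342 and 0.388 in the trunk groups. It was nonetheless higher in each Ednrb-/- caudal library (0.4 to 0.405) than in each WT caudal one (0.352 to 0.38).

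**Figure D2:**
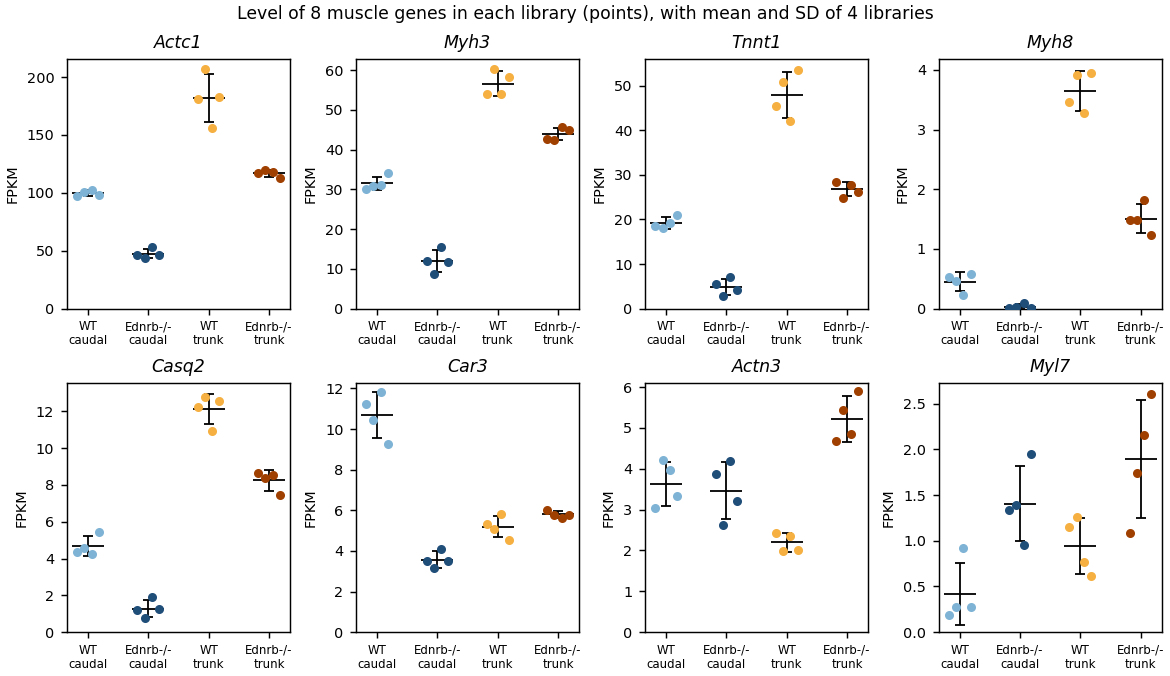
FPKM of 8 members in each of the 16 libraries (points), by group, with the mean and SD of the 4 libraries in black. Actc1, Myh3, Tnnt1, Myh8 and Casq2 are lowest in the 4 Ednrb-/- caudal libraries, Car3 is highest in WT caudal, Actn3 is highest in Ednrb-/- trunk, and Myl7 is lowest in 3 of 4 WT caudal libraries.

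Troponins carry the calcium switch of the thin filament. Of 8 members, 7 were tested: 5 fell in the caudal region and 2 in the trunk. Among all genes, 19.9% were called lower in the caudal region and 13% in the trunk. Calls in either direction made up 25.1% of all genes in the trunk, near the 28.6% of the troponins. Tnnt1, the slow skeletal troponin T, on chromosome 7 from 4507569 to 4519381, had the most negative caudal change of the 39 members tested, -1.93 ± 0.17 (adjusted p = 2.8e-06). It had 18.6, 18.1, 19.2 and 21.0 FPKM in WT caudal and 5.51, 2.85, 7.02 and 4.25 in Ednrb-/- caudal libraries. Its trunk levels were 45.5, 50.8, 42.0 and 53.5 in WT and 28.4, 24.8, 27.8 and 26.3 in Ednrb-/-, without overlap (-0.82 ± 0.17, adjusted p = 0.0028). Tnni3, the cardiac troponin I, is the next member on the same strand, with 1922 bases between the ends of the 2 genes, and lay between 0.702 and 1.29 FPKM in all 16 libraries. Its genotype changes were -0.01 ± 0.13 (adjusted p = 0.98) in the caudal region and 0.04 ± 0.13 (adjusted p = 0.87) in the trunk. The ratio of Tnnt1 to Tnni3 averaged 20.1, 4.85, 47.2 and 25.6 in WT caudal, Ednrb-/- caudal, WT trunk and Ednrb-/- trunk.

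Tnnc1, the slow and cardiac troponin C, fell in both regions. It went from 20.2 ± 1.63 to 7.65 ± 1.68 FPKM in the caudal region (-1.37 ± 0.11, adjusted p = 1.9e-06) and from 42.8 ± 3.93 to 29.9 ± 2.1 in the trunk (-0.51 ± 0.11, adjusted p = 0.0042). The fast skeletal Tnnc2 was all but undetected, with 0 to 5 reads per library. The slow Tnni1, the cardiac and embryonic Tnnt2 and the fast Tnnt3 fell in the caudal region by 0.72, 0.68 and 0.58 on the log2 scale (adjusted p = 0.0002, 0.00015 and 0.0017) and were not called in the trunk. The interaction was called for Tnnt3 of these (-0.62 ± 0.18, adjusted p = 0.048), a call lost in 16 of 28 alternatives. The fast Tnni2 had group means of 0.42 to 0.913 FPKM and was not called in either region. The slow-to-fast ratio Tnnt1 to Tnnt3 averaged 4.62 in WT caudal, 1.79 in Ednrb-/- caudal, 8.71 in WT trunk and 4.69 in Ednrb-/- trunk libraries. The other slow-to-fast pair, Tnni1 to Tnni2, showed no such fall, with means of 10.4, 16.0, 12.6 and 13.0 in the same groups. Its genotypes overlapped in each region, and Ednrb-/- caudal replicate 1 reached 43.4, where Tnni2 had 5 reads.

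Proteins of the Z-disc, M-band and filament scaffold gave 9 lower and 0 higher of 11 in the caudal region, and 5 lower and 1 higher in the trunk. Of all genes, 19.9% were called lower and 21.7% higher in the caudal region, and 13% and 12.2% in the trunk. The alpha-actinins, which crosslink thin filaments at the Z-disc, split. Actn2, the form of slow muscle and heart, had 8.29, 8.71, 8.9 and 9.6 FPKM in WT caudal and 2.22, 1.54, 3.61 and 2.23 in Ednrb-/- caudal libraries (-1.74 ± 0.15, adjusted p = 2.0e-06). In the trunk it had 15.6, 19.4, 17.0 and 18.2 in WT and 9.91, 10.2, 11.0 and 9.22 in Ednrb-/- (-0.77 ± 0.15, adjusted p = 0.0015). The groups of each region did not overlap.

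Actn3, the fast-fibre form, overlapped in the caudal region, at 3.05, 4.2, 3.97 and 3.32 FPKM in WT and 3.87, 2.61, 4.18 and 3.21 in Ednrb-/- (-0.07 ± 0.12, adjusted p = 0.69). In the trunk every Ednrb-/- library lay above every WT one, at 4.67, 5.43, 4.86 and 5.91 against 2.43, 1.99, 2.36 and 2.01, and the gene rose, by 1.08 ± 0.12 (adjusted p = 4.3e-05). It was the member whose trunk libraries were all higher in Ednrb-/-, 1 of 39, against 13.9% of all genes. The rise held in all 28 alternatives. The ratio of Actn2 to Actn3 averaged 2.48 in WT caudal, 0.68 in Ednrb-/- caudal, 8.11 in WT trunk and 1.95 in Ednrb-/- trunk libraries. The 4 highest values were thus the 4 WT trunk libraries, between 6.43 and 9.74.

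**Figure D3:**
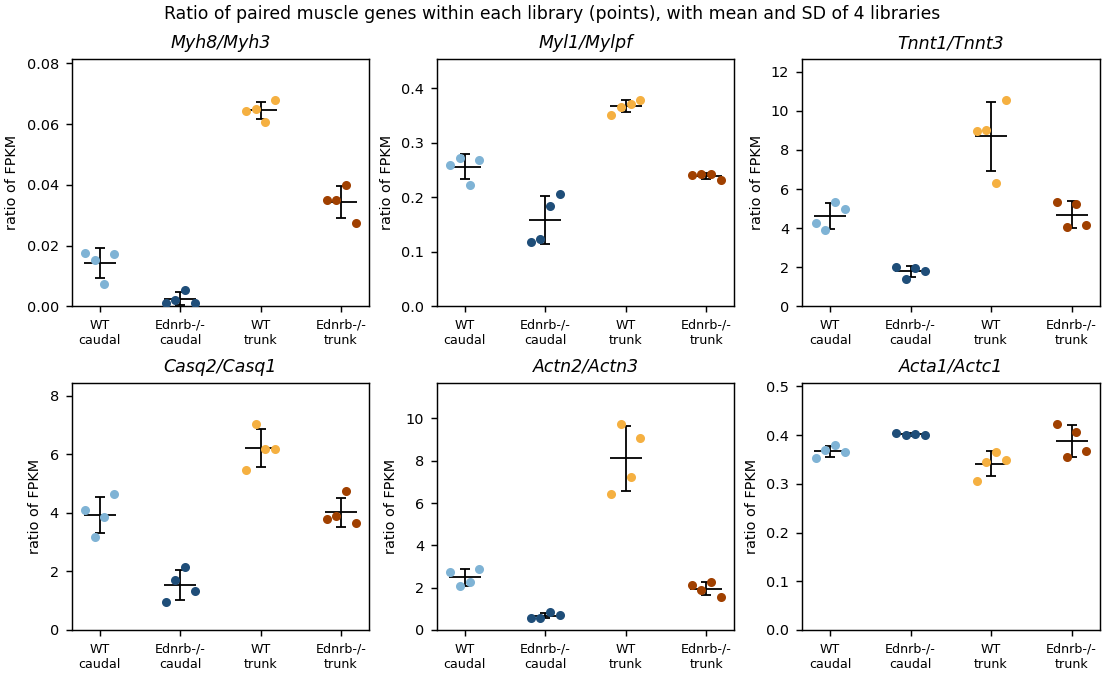
Ratios of FPKM between paired isoforms in each of the 16 libraries, by group (points), with the mean and SD of the 4 libraries in black. Tnni1 to Tnni2, which overlapped between the genotypes in each region, is not drawn. Actn2 to Actn3 and Tnnt1 to Tnnt3 average 8.11 and 8.71 in WT trunk against 0.68 and 1.79 in Ednrb-/- caudal, while Acta1 to Actc1 averages 0.342 to 0.402 in all groups.

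Des, the intermediate filament that links neighbouring Z-discs, did not follow the other genes. It had 11.1, 12.9, 9.88 and 10.4 FPKM in WT caudal, 11.9, 11.6, 11.0 and 12.0 in Ednrb-/- caudal, 9.2, 10.6, 8.28 and 10.1 in WT trunk and 10.4, 10.8, 11.2 and 11.6 in Ednrb-/- trunk libraries. Each group overlapped another, and the genotype changes were 0.08 ± 0.08 (adjusted p = 0.48) and 0.20 ± 0.08 (adjusted p = 0.082). Titin and nebulin, the giant scaffolds, had low levels per length and fell in both regions. Neb changed by -1.14 ± 0.12 (adjusted p = 7.8e-06) and -0.50 ± 0.12 (adjusted p = 0.0064), from means of 1.7 to 0.511 and 3.65 to 2.43 FPKM. Ttn changed by -0.83 ± 0.09 (adjusted p = 1.3e-05) and -0.37 ± 0.09 (adjusted p = 0.0099), from 0.959 to 0.32 and 1.6 to 1.13.

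The myosin-binding proteins Mybpc1, the slow form of protein C, and Mybph fell in both regions. Mybph went from 4.93 ± 0.449 to 2.07 ± 0.188 FPKM in the caudal region (-1.08 ± 0.09, adjusted p = 2.1e-06) and from 9.47 ± 1.55 to 6.81 ± 0.274 in the trunk (-0.44 ± 0.09, adjusted p = 0.0031). Mybpc1 changed by -0.84 ± 0.10 (adjusted p = 1.6e-05) and -0.31 ± 0.10 (adjusted p = 0.03), the latter lost in 8 of 28 alternatives. The M-band genes Myom1 and Myom2, the Z-disc gene Ldb3 and the titin cap Tcap fell in the caudal region, by 0.69, 0.70, 0.73 and 0.75 on the log2 scale, and did not pass in the trunk. Of these, the interaction was called for Myom1 (-0.58, adjusted p = 0.01) and Ldb3 (-0.67, adjusted p = 0.0043).

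Calcium release proteins couple the membrane signal to contraction. Casq2, the calcium-binding protein of the reticulum in slow muscle and heart, had 4.37, 4.58, 4.27 and 5.45 FPKM in WT caudal and 1.19, 0.765, 1.88 and 1.26 in Ednrb-/- caudal libraries (-1.57 ± 0.14, adjusted p = 2.5e-06). In the trunk it had 12.2, 12.8, 10.9 and 12.5 in WT and 8.63, 8.37, 8.54 and 7.44 in Ednrb-/- (-0.53 ± 0.14, adjusted p = 0.011). All 4 groups were separate. Its fast-muscle partner Casq1, at group means of 0.877 to 2.06 FPKM, was not called in either region (-0.33 ± 0.14, adjusted p = 0.077 and 0.06 ± 0.14, adjusted p = 0.8). Ryr1, the release channel, and Cacna1s, its voltage sensor, fell in the caudal region by 0.75 and 0.65 on the log2 scale. In the trunk Cacna1s fell by 0.34 (adjusted p = 0.025, lost in 7 of 28 alternatives), while Ryr1 had -0.17 ± 0.09 (adjusted p = 0.21).

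The acetylcholine receptor receives the motor nerve's signal, and its gamma subunit is the fetal form. Chrna1, the alpha subunit, fell in both regions, with changes of -0.78 ± 0.11 (adjusted p = 4.7e-05) and -0.78 ± 0.11 (adjusted p = 0.00014), and the interaction estimate was 0.00 ± 0.15 (adjusted p = 1). Its mean went from 1.08 to 0.425 FPKM in the caudal region and from 2.58 to 1.29 in the trunk. Chrng, the gamma subunit, on chromosome 1 from 87132379 to 87140416, fell in the caudal region (-0.99 ± 0.13, adjusted p = 3.8e-05), and its trunk change was -0.37 ± 0.13 (adjusted p = 0.052). Chrnd, the delta subunit, 4586 bases upstream on the same strand, fell in the caudal region (-0.59 ± 0.10, adjusted p = 0.0003). Its trunk levels overlapped, at 0.601, 0.801, 0.524 and 0.645 in WT and 0.605, 0.798, 0.664 and 0.746 in Ednrb-/- libraries. The interaction of Chrnd was -0.66 ± 0.14 (adjusted p = 0.015), and 0.0507 was its adjusted p without the 3 mixed libraries.

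Car3, the carbonic anhydrase of slow muscle and fat, on chromosome 3 from 14928572 to 14937583, had the most negative interaction among the members. It was highest in WT caudal, at 11.2, 10.4, 11.8 and 9.25 FPKM, and lowest in Ednrb-/- caudal, at 3.52, 3.14, 4.11 and 3.53 (-1.46 ± 0.08, adjusted p = 9.1e-08). The trunk groups overlapped, at 5.32, 5.07, 5.8 and 4.56 in WT and 6.04, 5.79, 5.61 and 5.79 in Ednrb-/- (0.15 ± 0.08, adjusted p = 0.2). The genotype effects differed by -1.61 ± 0.12 (adjusted p = 9.4e-06), while limma-voom gave -2.81 for the interaction of Myh8. Car3 was thus lower in trunk than in caudal WT embryos (-0.98 ± 0.08, adjusted p = 1.8e-06) and higher in trunk than in caudal Ednrb-/- embryos (0.64 ± 0.08, adjusted p = 4.4e-05). The other enzyme, the muscle creatine kinase Ckm, had 0 to 22 reads per library and was not tested with the rest.

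The 3 genes for sarcomere assembly fell in both regions, where 19.9% of all genes were called lower in the caudal region and 13% in the trunk. Klhl41, which stabilises nebulin, went from 7.91 ± 0.599 to 2.77 ± 0.493 FPKM in the caudal region (-1.37 ± 0.09, adjusted p = 3.7e-07) and from 14.5 ± 0.74 to 8.57 ± 0.774 in the trunk (-0.73 ± 0.09, adjusted p = 9.0e-05). Smyd1, a methyltransferase that acts on myosin assembly, went from 4.7 ± 0.335 to 1.71 ± 0.282 (-1.24 ± 0.09, adjusted p = 9.5e-07) and from 9.42 ± 1.14 to 6.26 ± 0.317 (-0.55 ± 0.09, adjusted p = 0.00063). Unc45b, the myosin chaperone, changed by -0.93 ± 0.10 (adjusted p = 1.1e-05) and -0.45 ± 0.10 (adjusted p = 0.005). The groups of each region did not overlap for any of the 3. Of all genes, 18.2% in the caudal region and 14.2% in the trunk had every Ednrb-/- library below every WT one.

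Between the regions, contractile genes were higher in the trunk. In WT embryos 28 of 39 members were higher in the trunk than in the caudal region and 3 lower, where 18% of all genes were called, 9.69% higher and 8.35% lower. Every WT trunk library lay above every WT caudal one for 30 members (11% of all genes) and below for 3 (10.3%). In Ednrb-/- embryos 34 were higher and 0 lower, where 36.2% were called, 17.3% higher and 18.9% lower; at an unadjusted p under 0.05 0 members were lower, and with voom 0. Without the mixed libraries the counts were 29 and 2 in WT and 34 and 0 in Ednrb-/-. The 3 lower in WT trunk were Car3, Actn3 (-0.61 ± 0.12, adjusted p = 0.0031) and Myom2 (-0.37 ± 0.11, adjusted p = 0.034), the last lost in 11 of 28 alternatives. Among the highest in WT trunk were Myh8 (2.14 ± 0.12, adjusted p = 2.7e-08), Tnnt1 (1.29 ± 0.17, adjusted p = 0.00011) and Casq2 (1.29 ± 0.14, adjusted p = 1.6e-05). In Ednrb-/- embryos the same 3 genes differed by 1.91 ± 0.12 (adjusted p = 7.5e-08), 2.40 ± 0.17 (adjusted p = 1.7e-07) and 2.33 ± 0.14 (adjusted p = 2.3e-08). For Myh8, whose Ednrb-/- caudal levels rest on few reads, the order turned with voom, to 3.1 in WT and 5.9 in Ednrb-/- embryos. The regional contrasts use the same libraries as the genotype contrasts, so a larger regional difference in Ednrb-/- embryos and the interaction are 1 measurement.

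By isoform class, the skeletal members fell for 17 of 20 tested in the caudal region and 11 of 20 in the trunk, where 1 rose. The shared members fell for 15 of 16 and 7 of 16. Of all genes, 19.9% were called lower and 21.7% higher in the caudal region, and 13% and 12.2% in the trunk. Of the 3 cardiac members, Myl7 rose in both regions, Myh6 fell in the trunk and Tnni3 was not called. The trunk calls of Myl7 and Myh6 were lost in 17 and 10 of 28 alternatives. The summed level of the cardiac members was 1.33 to 1.91 FPKM in WT caudal, 2.21 to 3.01 in Ednrb-/- caudal, 2.51 to 3.36 in WT trunk and 2.45 to 4.47 in Ednrb-/- trunk libraries. The skeletal members summed to 198 to 214, 68.7 to 111, 322 to 374 and 250.2 to 268 FPKM in the same groups. Of 12 heart genes outside the members, 6 were tested. In the caudal region Corin, Sln and Smpx fell (-1.45 ± 0.17, adjusted p = 1.8e-05 for Corin) and Hand1 rose (0.89 ± 0.28, adjusted p = 0.018), and in the trunk the same 3 fell and Ankrd1 rose, where 19.9% and 21.7% of all genes were called lower and higher in the caudal region and 13% and 12.2% in the trunk. Of the 6 below the filter, named after their values were seen, the transcription factor Nkx2-5 averaged 0.0143 FPKM in WT trunk and was listed at 0 in every library of the other groups, and Bmp10 had at most 0.0422. The 12 heart genes summed to 5.66 to 7.05, 2.59 to 4.9, 11.3 to 16.6 and 10.1 to 11.1 FPKM in WT caudal, Ednrb-/- caudal, WT trunk and Ednrb-/- trunk. Without Corin and Sln, which skeletal muscle also expresses, the sums were 1.33 to 2.66, 2.06 to 3.43, 2.68 to 6.33 and 5.3 to 7.41. This removal was not planned, and it took out genes that fell, while Smpx, which also fell, was kept. The direction of the genotype difference in the mean sums depends on it: with all 12 genes Ednrb-/- was lower in each region, and without Corin and Sln it was higher.

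Other genes of the contractile programme, 48 in a list, fell about as often in the trunk as in the caudal region. Of the 34 tested, 26 fell in the caudal region and 2 rose, where 19.9% and 21.7% of all genes were called, and 26 fell in the trunk and 1 rose, where 13% and 12.2% were called. Their median changes were -0.69 and -0.46. The interaction was called for 5 of the 34 (6.76% of all genes), lower in the caudal region for Atp2a1, Pgam2, Pygm and Synpo2l and higher for Tpm1, with a median of -0.14 over the 34, against -0.58 over the members. Atp2a1, the calcium pump of fast muscle, went from 6.11 to 2.08 FPKM in the caudal region (-1.38 ± 0.12, adjusted p = 2.0e-06), and Lmod3, a thin filament nucleator, from 2.22 to 0.647 (-1.25 ± 0.12, adjusted p = 5.4e-06). In the trunk Mb, myoglobin, went from 1.61 to 0.303 FPKM (-1.39 ± 0.13, adjusted p = 1.2e-05), and Musk, the receptor that organises the nerve-muscle synapse, from 1.37 to 0.43 (-1.02 ± 0.13, adjusted p = 0.00011). Tpm1 and the genes that rose were named after their values were seen. The latter were Eno3, the muscle enolase, in both regions (0.45 ± 0.08, adjusted p = 0.0003 and 0.56 ± 0.08, adjusted p = 0.00014), and Tpm3, a tropomyosin of slow muscle and many other cells, in the caudal region (0.19 ± 0.04, adjusted p = 0.0017).

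Myogenic regulators, transcription factors and fusogens of muscle development, did not move as 1 block. In the caudal region 6 of 11 fell and 1 rose, where 19.9% and 21.7% of all genes were called lower and higher, and in the trunk 5 fell and 4 rose, where 13% and 12.2% were. Myod1, a determination factor of skeletal muscle, had the most negative caudal change of the 11 (-2.08 ± 0.19, adjusted p = 3.5e-06), from 4.21 ± 1.03 to 0.623 ± 0.297 FPKM, and went from 13.2 ± 3.04 to 6.23 ± 0.721 in the trunk (adjusted p = 0.0018). Myog, which drives differentiation, averaged 29.1 ± 1.64 and 13.6 ± 2.24 FPKM in WT and Ednrb-/- caudal (-1.08 ± 0.10, adjusted p = 2.8e-06) and 64.3 ± 6.48 and 37.5 ± 2.73 in the trunk (-0.76 ± 0.10, adjusted p = 7.8e-05). The fusogens Mymk and Mymx changed by -0.95 ± 0.10 (adjusted p = 9.3e-06) and -0.97 ± 0.16 (adjusted p = 0.00022) in the caudal region and -0.78 ± 0.10 (adjusted p = 0.00012) and -1.36 ± 0.16 (adjusted p = 5.3e-05) in the trunk.

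Mef2c, a factor that binds MEF2 sites, fell by 0.79 and 0.25 on the log2 scale in the caudal region and the trunk. Myf5 and Myf6, of the same family as Myod1, rose in the trunk (1.26 ± 0.12, adjusted p = 1.5e-05 and 1.53 ± 0.15, adjusted p = 1.6e-05) and were not called in the caudal region (-0.31 ± 0.12, adjusted p = 0.055 and -0.24 ± 0.15, adjusted p = 0.22). Six4 rose in both regions (0.13 and 0.34). The progenitor gene Pax7 fell in the caudal region (-0.42 ± 0.12, adjusted p = 0.0083), and Pax3 was not called in either region. The interaction was called for 5 of the 11, among them Myf6 (-1.77 ± 0.21, adjusted p = 0.00084), Myf5 (-1.57 ± 0.17, adjusted p = 0.00042), Myod1 (-1.07 ± 0.27, adjusted p = 0.031) and Mef2c, each of the 5 with the more negative effect in the caudal region (3.78% of all genes). Among the members, Actn3 likewise rose in the trunk without a caudal call.

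Markers of other tissues in the dissected regions were read against the same shares of all genes, 19.9% lower and 21.7% higher in the caudal region and 13% and 12.2% in the trunk. In the caudal region 8 of 10 spinal neuron genes fell and 1 rose, and their sum was 350 to 453 FPKM in WT and 165 to 267 in Ednrb-/- libraries. In the trunk 3 of the 10 fell and 1 rose, with sums of 413 to 516 and 368 to 420. All 9 sclerotome and cartilage genes fell in the caudal region, from sums of 123 to 132 to 80 to 91.5 FPKM. In the trunk 3 of these 9 fell and 0 rose, with sums of 86.6 to 122 and 97.8 to 101, a share of calls near the 25.1% of all genes. Of 8 smooth muscle genes tested, 1 was called in the caudal region (Synm, lower) and 2 in the trunk (Acta2 and Smtn, lower), no larger a share than the 41.6% and 25.1% of all genes. The summed level of the smooth muscle list was nonetheless lower in Ednrb-/- trunk libraries. It was 79.7 to 97.7 FPKM in WT trunk and 64.4 to 71.9 in Ednrb-/- trunk, without overlap. In the caudal region the sums of the genotypes overlapped. The part of embryo stage, tissue makeup or dissection in the fall of the contractile genes was not tested.

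Within groups, the members deviated together in some libraries. Among the 4 Ednrb-/- caudal libraries, replicate 2 had the lowest value for 31 of 39 members (26.9% of all genes) and replicate 3 the highest for 25 (25.4%). The median deviation of the members from the group mean was -0.26 and 0.20 on the log2 scale in these libraries. In WT trunk, replicate 2 was highest for 26 members (24.6% of all genes), with a median deviation of 0.11. The summed member levels of the Ednrb-/- caudal libraries were 182, 146, 212 and 170 FPKM, and the sums of the spinal neuron genes were 230.3, 165, 267 and 183, in the same order; whether the 2 have a common source was not tested. Replicate 3 is also one of the 3 mixed libraries. Because members rise and fall together between libraries, their 39 tests are not independent of one another.

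**Figure D4:**
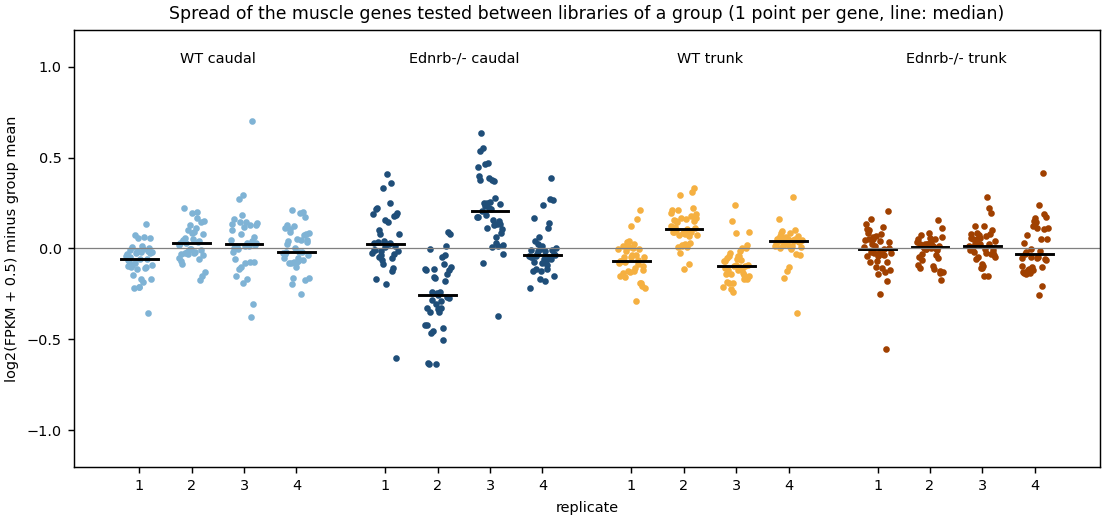
Deviation of each tested member from its group mean (log2(FPKM + 0.5)) in each of the 16 libraries; each point is a member and the black line is the median. Ednrb-/- caudal replicates 2 and 3 sit lowest and highest, with medians of -0.26 and 0.20.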

How the data were processed

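Total RNA was extracted with TRIzol and sequenced after standard Illumina library preparation, per the labels' protocols. The submitters' processing notes name fastp, HISAT2 2.0.5, featureCounts 1.5.0-p3 and build mm39. No source used here names the annotation, whether strand was used, or how reads matching more than 1 gene were handled, so near-identical or overlapping genes may share reads. The authors deposited FPKM in 1 table that has a column for each library. FPKM times gene length gave whole reads within 0.01, and these give the depths and the reads behind low values. Gene coordinates are those of the deposited table.

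Groups came from the titles. The main test was limma 3.58.1 (R 4.3.3) on log2(FPKM + 0.5) over all 16 libraries, with 4 group means, a trended prior and Benjamini-Hochberg adjustment. A gene was tested if 4 or more libraries had 0.5 FPKM or more, and called at an adjusted p under 0.05. Members below the filter were compared by a two-sided exact permutation test. The script was tested on simulated data. Alternatives were a pseudocount of 0.1 or 1, no filter or 1 FPKM, TPM or quantile scaling, the listed reads as total, only the groups compared, a replicate block, array weights, limma-voom, each library left out, and the 3 mixed libraries left out.

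The text names the 43 members by role, Ednrb, the myogenic regulators (1 result is not reported here), and up to 4 genes of each other list by adjusted p in the comparison described, except where it says that genes were named after their values were seen. The members and all lists were chosen with earlier results of these data known, so no list was tested as a set. Replicate numbers were not used to pair libraries in the main test. The deviations of same-numbered libraries correlated between -0.0836 and 0.109, which cannot show whether any libraries came from the same embryo. Promoters are RefSeq sequences of GRCm38.p6, matched by symbol. Figures were drawn with matplotlib 3.10.9.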

Additional observations from a re-analysis of the deposited data

Results flagged for a closer look

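Single libraries stood apart from the other 3 of their group in 7 of 156 groups of 4, where chance gives about 1 in 20. Myl7 had 0.927 FPKM in WT caudal replicate 3 and 0.184 to 0.278 in the others. Mylpf had 53.7 FPKM in the same library, against 47.0 to 47.7. Myh8 had 0.0857 FPKM in Ednrb-/- caudal replicate 3, against 0.0138 to 0.0192, and Chrnd 0.344 in Ednrb-/- caudal replicate 2, against 0.279 to 0.289. Low values were those of Myh6 in WT trunk replicate 1 (0.584, against 0.802 to 0.843), Myl4 in WT trunk replicate 3 (7.76, against 8.47 to 8.58) and Tnni2 in WT caudal replicate 2 (0.512, against 0.653 to 0.676).

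The effect of genotype differed between the caudal region and the trunk for 23 of 39 members by limma's interaction term, each with the lower value in the caudal region (log2 scale, caudal minus trunk). Of all genes, 6.76% were called for the interaction, 3.78% in that direction. The change was over 1 log2 unit lower for Car3 (-1.61), Myh7 (-1.19), Actn3 (-1.15), Tnnt1 (-1.11), Myl1 (-1.04), Mylpf (-1.04), Casq2 (-1.04) and Myh3 (-1.03). In Actn3 it comes from a rise in the trunk, where the others fell in the caudal region. It was -0.97 for Actn2, -0.86 for Tnnc1, -0.69 for Smyd1, -0.67 for Ldb3, -0.66 for Chrnd, -0.64 for Mybph, -0.64 for Klhl41, -0.63 for Neb and -0.62 for Tnnt3. The remaining 6 were Myom1 (-0.58), Ryr1 (-0.58), Mybpc1 (-0.53), Acta1 (-0.48), Ttn (-0.46) and Actc1 (-0.44). Why the regions differ was not tested.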

How the results depend on the processing

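Of 142 member calls over the 5 comparisons, 127 held under all 28 alternatives, including each library left out, and 15 were lost under at least 1. None of the 33 calls of genotype in the caudal region or the 34 of region in Ednrb-/- was lost, against 5 of 21 for genotype in the trunk, 3 of 31 for region in WT and 7 of 23 for the interaction. The calls lost were those of Cacna1s, Mybpc1, Myh3, Myh6 and Myl7 in the trunk, Myh7, Myom2 and Tcap between WT regions, and Acta1, Chrnd, Mybpc1, Myl1, Neb, Tnnt3 and Ttn in the interaction. Ttn lost its interaction in 20 alternatives, Tnnt3 in 16 and Neb in 12, and the cause was not tested. Another 15 member values gained a call under some alternative. The interaction of Myh8 turned from 0.23 to -2.81 with voom, where no FPKM is added to its few reads.

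With 1 library left out, the members called ranged from 33 to 34 for genotype in the caudal region, 16 to 23 in the trunk, 28 to 32 for region in WT, 34 to 34 in Ednrb-/- and 17 to 26 for the interaction. All genes called for the interaction numbered 1163, 571 with no filter, and 585 to 1488 with 1 library left out; it was between 585 and 673 without WT caudal replicate 1, Ednrb-/- caudal replicates 2 and 4, WT trunk replicate 1 or Ednrb-/- trunk replicates 1 and 3. Genes called for region in WT numbered 3103, and 1912 without the 3 mixed libraries, where fewer samples entered.

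The split of all genes called higher and lower moved with TPM scaling, with the listed reads as total, and with voom, which also changes the model. In the caudal genotype comparison it was 3732 and 3432, 2219 and 5017 with TPM, 2671 and 4352 with the listed reads, 2613 and 4447 with voom, and 3419 and 3190 with quantile scaling. In the trunk it was 2092 and 2229, 1643 and 2726 with the listed reads and 1729 and 2965 with voom. Between regions in Ednrb-/- it was 2982 and 3252, 3936 and 1945 with TPM, 3403 and 2595 with the listed reads and 3535 and 2621 with voom. For the interaction it was 513 and 650, 299 and 1130 with TPM and 447 and 1187 with voom. Under these 3 settings 32 to 33 members were called lower in the caudal region.

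With the replicate block, 32 members fell and 1 rose in the caudal region, 19 fell and 1 rose in the trunk, and 19 were called in the interaction. Of the 17205 genes tested, 3400 fell and 3743 rose in the caudal region under this setting, and 2231 fell and 2118 rose in the trunk. The interaction was called lower for 657 and higher for 471. Among same-numbered libraries, 1 of 24 pairs had a deviation correlation over 0.1, and own number was best for 4 of 24. The block changed the call of 7 member values. Depth limits Myl2, Myl3, Tnnc2, Ckm, Myl7 and the Ednrb-/- caudal level of Myh8.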

Other observations

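Several members sit side by side in the genome (mm39), and the partners did not always move alike. On chromosome 7, Tnnt3 (142052573 to 142069746) fell in the Ednrb-/- caudal region by 0.58 on the log2 scale, while Tnni2, 54425 bases away, had -0.33 ± 0.17 (adjusted p = 0.14). On chromosome 1, Tnni1 (135707172 to 135738727) and Tnnt2, 25364 bases apart, fell there by 0.72 and 0.68. The neighbours Chrnd and Chrng had a ratio of Chrng to Chrnd that averaged 2.75 in WT caudal, 2.47 in Ednrb-/- caudal, 5.19 in WT trunk and 3.49 in Ednrb-/- trunk libraries. No test of neighbouring genes was made.

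Of blood genes, which bear on how much blood each sample held, 3 of 7 fell and 1 rose in the Ednrb-/- libraries of each region, where 41.6% of all genes were called in the caudal region and 25.1% in the trunk. The adult globins Hba-a1 and Hbb-bt were lower and the embryonic globin Hbb-bh1 higher. Their summed levels overlapped, at 1122 to 1271 FPKM in WT caudal, 1126 to 1707 in Ednrb-/- caudal, 995 to 1315 in WT trunk and 1043 to 1235 in Ednrb-/- trunk libraries. Liver genes were near 0: the 8 summed to at most 3.09 FPKM in any library, and 1 of them, Apoa2, passed the filter and was not called in either region.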
